A study of Mus musculus with 96 samples.

Results

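The transcription factor p53 (gene Trp53), its partners Mdm2 and Mdm4, and genes that p53 is known to switch on directly form a set of 36 genes, described here in C2C12 cells, an immortalised mouse muscle precursor line. The set was defined by gene name, from general knowledge of the p53 pathway, with earlier results of these data already known. All 36 names were found among the 54150 rows of the count table (54146 mouse genes and 4 transgene rows). RNA sequencing covered 96 libraries in 35 groups of 2 or 3. Proliferating myoblasts in 10% fetal bovine serum carried a lentiviral gene that doxycycline (300 ng/ml, from 24 h before treatment) switches on. That gene was luciferase (the control), LbNOX, mitoLbNOX or NDI1. LbNOX is a bacterial enzyme that oxidises NADH to NAD+ with oxygen in the cytosol, mitoLbNOX is the same enzyme sent to the mitochondrial matrix, and NDI1 is a yeast NADH dehydrogenase that bypasses complex I. All of these myoblasts received doxycycline, controls included. They were treated for 10 h with DMSO (the solvent), 0.5 uM piericidin (a complex I inhibitor), 0.5 uM antimycin (a complex III inhibitor) or 1 uM oligomycin (an ATP synthase inhibitor). mitoLbNOX cells were given no oligomycin, and NDI1 cells were given DMSO or piericidin. In a separate experiment control and LbNOX myoblasts were kept for 48 h with DMSO or 20 ug/ml chloramphenicol, which blocks translation on mitochondrial ribosomes. The medium of that experiment held uridine, the precursor from which cells can make pyrimidines, whereas that of the 10 h treatments held neither uridine nor pyruvate. Cells without a transgene were studied after 1 day and after 4 days in 2% horse serum, which turns confluent myoblasts into myotubes. They received the same inhibitors for 10 h, except that day 1 cells were given no antimycin. Myotubes also received the uncoupler BAM15 (0.5 uM), combinations with oligomycin, or 5% oxygen, and a further set of myotubes received an adenovirus 48 h after the change of serum. It carried GFP alone or GFP together with LbNOX, and the latter are called LbNOX myotubes.

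p53 is a DNA-binding protein that is normally kept scarce because MDM2 marks it for destruction, with MDM4 as a partner that blocks its activity. Stress signals such as DNA damage, blocked nucleotide synthesis or disturbed ribosome assembly free p53, which then raises transcription of genes that halt the cell cycle, repair DNA, adjust metabolism or start apoptosis. Because p53 is controlled mainly as a protein, its own mRNA need not move when its targets do. MDM2 is itself a target, which closes a feedback loop, and many of the targets also answer to other factors, among them the ATF4 and DDIT3 arms of the integrated stress response (ISR).

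p53 binds a pair of 10-base half-sites. Stretches of promoter are printed for 4 genes on which the results turn and whose window holds the half-site: Cdkn1a, the cell cycle inhibitor p21, Ccng1, a feedback regulator, Mdm2, and Bax, an apoptosis gene. Each runs from 250 to 31 bases before the RefSeq transcription start, 5′ to 3′ on the strand of the gene, in build GRCm38.p6 (sequences from RefSeq). Capitals mark matches to the p53 consensus half-site, a palindromic motif that was searched on both strands. The windows are chr17:29090729-29090948 (plus strand) for Cdkn1a, chr11:40755317-40755536 (minus strand) for Ccng1, chr10:117710789-117711008 (minus strand) for Mdm2 and chr7:45466929-45467148 (minus strand) for Bax.
Cdkn1a: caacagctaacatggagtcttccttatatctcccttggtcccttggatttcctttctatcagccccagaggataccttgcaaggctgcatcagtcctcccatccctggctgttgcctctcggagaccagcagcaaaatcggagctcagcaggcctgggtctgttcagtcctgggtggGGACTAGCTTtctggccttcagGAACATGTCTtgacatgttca
Ccng1: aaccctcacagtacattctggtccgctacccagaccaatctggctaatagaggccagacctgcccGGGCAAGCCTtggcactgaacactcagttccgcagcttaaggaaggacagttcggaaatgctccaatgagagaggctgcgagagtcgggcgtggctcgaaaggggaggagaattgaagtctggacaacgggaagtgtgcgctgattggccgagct
Mdm2: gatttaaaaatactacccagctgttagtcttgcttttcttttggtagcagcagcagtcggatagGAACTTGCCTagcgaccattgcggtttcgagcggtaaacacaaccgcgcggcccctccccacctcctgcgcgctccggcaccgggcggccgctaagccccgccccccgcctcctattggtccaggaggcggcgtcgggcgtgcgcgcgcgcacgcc
Bax: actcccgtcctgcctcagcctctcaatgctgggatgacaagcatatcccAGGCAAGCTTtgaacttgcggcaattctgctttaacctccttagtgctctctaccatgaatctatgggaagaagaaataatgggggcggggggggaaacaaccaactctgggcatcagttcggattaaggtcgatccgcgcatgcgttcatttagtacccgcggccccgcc
Windows of 250 bases before to 50 bases after the start were found for 28 of the 36 genes, and a half-site lay in 12 of these (42.9%), against 2582 of 27025 genes with a window (9.6%). The 8 genes without a window were Zmat3, Perp, Rrm2b, Pmaip1, Trp53inp1, Tnfrsf10b, Ddb2 and Xpc. Cdkn1a was the only member with a pair of half-sites at most 13 bases apart, an arrangement held by 20 of 27025 genes (0.074%). The other members with a half-site were Trp53, Gtse1, Aen, Ei24, Rps27l, Polk, Sesn1 and Ddit4l. A match describes the letters of the window and is not evidence of binding.

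Libraries held 6458295 to 15366745 counts (median 10336588.5). Levels below are normalized counts, that is, counts divided by a size factor for library depth, and they are not compared between genes. Fold changes and adjusted p-values are from edgeR's quasi-likelihood test (Benjamini-Hochberg method, across every gene tested in a comparison), and a gene is called at an adjusted p below 0.05. The transgenes had 0 counts in every library that should lack them. The differentiation genes Myh3 and Ckm stayed at or below 14.3 and 6.2 normalized counts in all myoblast libraries and the endothelial gene Cdh5 and the epithelial gene Epcam at or below 7.4 and 3.2 in every library, whereas Myh3 reached 13407 to 25174 in day 1 cells and myotubes. These are part of a longer list of markers. Levels of the others, among them Ptprc, Cd68, Pecam1, Krt18, Myog and Acta1, are not given here. The genes given therefore do not show that other cell types were absent. The sources do not say that replicates are separate cultures, so p-values measure the spread between these samples, which may be technical. These are bulk samples, in which fewer cells of a type and less RNA per cell cannot be told apart.

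Antimycin in LbNOX myoblasts raised most of the p53 genes. Of the 35 members with enough counts to be tested, 27 rose and 2 fell, where 46.1% of the 11978 genes tested were called, 23.3% higher and 22.9% lower. The median log2 fold change of the members was 0.79, beside 0.03 over all genes. In control myoblasts the same drug raised 12 members and lowered 6 (background 32.1% and 31.1%, together 63.2%), with a median of 0.22. In mitoLbNOX myoblasts it raised 15 and lowered 7 (background 24.8% and 22.9%), with a median of 0.14. The 6 tested members that were not called in LbNOX cells were Apaf1, Perp, Ercc5, Rrm2b, Ddb2 and Sesn1. Each cell line was compared with its own DMSO libraries, so these counts do not share controls.

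**Figure D1:**
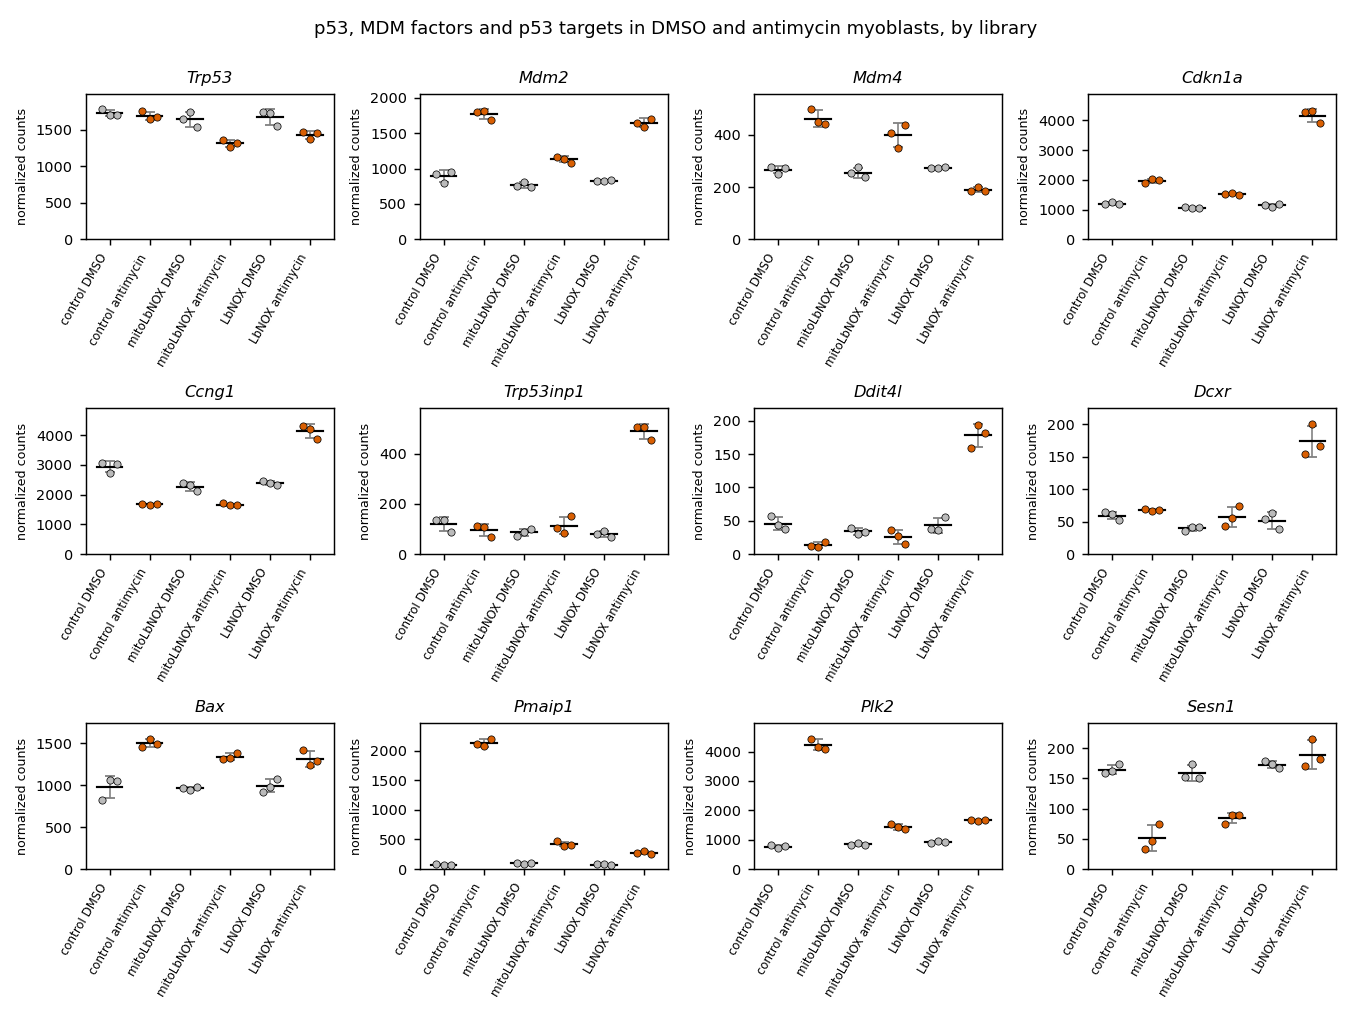
Normalized counts of 12 p53 genes in each library of DMSO and antimycin treated myoblasts (control, mitoLbNOX and LbNOX). Points are libraries, lines are means and bars are SD (n = 3), with the vertical axis starting at 0 in each panel. Cdkn1a, Trp53inp1, Ddit4l and Dcxr lie highest in the LbNOX antimycin libraries, whereas Pmaip1 lies highest in the control antimycin libraries.

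Among p53 and its feedback genes, the p53 mRNA did not rise in LbNOX cells. Trp53 stood at 1742, 1736 and 1553 normalized counts in the LbNOX DMSO libraries and at 1472, 1370.2 and 1456 with antimycin. The antimycin libraries all lay below the DMSO libraries, and the log2 fold change was −0.20 (SE 0.0569, adjusted p = 0.00433). In control cells the values were 1781, 1706 and 1709.7 with DMSO and 1759, 1648 and 1672 with antimycin, which overlap (log2 fold change 0.00, SE 0.0567, adjusted p = 0.987). Trp53 also fell with antimycin in mitoLbNOX cells, and the log2 fold change there was −0.29 (SE 0.057, adjusted p = 8.64e-05).

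Mdm2, which encodes the ubiquitin ligase that degrades p53, had 827, 823 and 831 normalized counts in LbNOX DMSO libraries and 1647, 1578 and 1704 with antimycin, a 1.99 ± 0.0758-fold difference (mean ratio, SD of the treated libraries, n = 3). In control cells it had 923, 800.3 and 952 with DMSO and 1801, 1814 and 1689 with antimycin. The treated libraries lay above the untreated ones in both lines. The log2 fold changes were 1.01 (SE 0.0566, adjusted p = 3.57e-15) in LbNOX cells and 1.02 (SE 0.0566, adjusted p = 6.34e-16) in control cells, and the difference between them was −0.01 (SE 0.0795, adjusted p = 0.949). In mitoLbNOX cells Mdm2 rose by 0.59 (SE 0.0569).

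Mdm4, the partner of MDM2 that binds and restrains p53, went opposite ways in the lines. It had 273, 272 and 277 normalized counts in LbNOX DMSO libraries and 185, 199 and 184 with antimycin. Control cells had 277, 251 and 271 with DMSO and 497, 447 and 438 with antimycin. The antimycin libraries thus lay below DMSO in the LbNOX line and above it in the control line, with log2 fold changes of −0.51 (SE 0.11, adjusted p = 0.000325) and 0.83 (SE 0.105, adjusted p = 6.12e-08). Ccng1, whose product cyclin G1 recruits a phosphatase to MDM2, went the other way round. It had 2449.8, 2379 and 2318 normalized counts in LbNOX DMSO libraries and 4326, 4221 and 3861 with antimycin. The control line had 3059, 2736 and 3034 with DMSO and 1699, 1672 and 1687 with antimycin. The groups did not overlap in either line, and the log2 fold changes were 0.82 (SE 0.0552) and −0.77 (SE 0.0558), with −0.41 (SE 0.0557) in mitoLbNOX cells.

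All 6 genes of arrest and growth control rose with antimycin in LbNOX cells, and 4 rose and 1 fell in control and in mitoLbNOX cells, beside the shares of all genes given before. Cdkn1a encodes p21, which inhibits cyclin-dependent kinases. Its normalized counts were 1175, 1078 and 1177 in LbNOX DMSO libraries and 4272, 4304 and 3909 with antimycin. In control cells they were 1183, 1252 and 1190.5 with DMSO and 1884, 2021 and 2004 with antimycin. In mitoLbNOX cells they were 1089.9, 1053 and 1065 with DMSO and 1541, 1568 and 1509 with antimycin. Every antimycin library lay above every DMSO library, and the LbNOX antimycin libraries lay above all others of these groups. The mean ratio was 3.64 ± 0.192 in LbNOX cells (log2 fold change 1.89, SE 0.0524, adjusted p = 5.86e-22), 1.63 ± 0.0621 in control cells and 1.44 ± 0.0272 in mitoLbNOX cells.

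Btg2, an antiproliferative factor, rose in each of these lines, with log2 fold changes of 1.52 (SE 0.122) in LbNOX, 0.97 (SE 0.121) in control and 0.70 (SE 0.127) in mitoLbNOX cells. Zmat3, an RNA-binding growth suppressor, rose in LbNOX cells by 0.99 (SE 0.175, adjusted p = 2.55e-05) and was not called in control (−0.19, SE 0.184) or mitoLbNOX cells (−0.40, SE 0.183), where it was called lower with the position code of the labels as a covariate (−0.44, adjusted p = 0.044) and without DMSO replicate 1 (−0.53, adjusted p = 0.0332) or DMSO replicate 2 (−0.51, adjusted p = 0.0412). Gtse1, which is most abundant in dividing cells and can carry p53 out of the nucleus, rose in LbNOX cells (0.65, SE 0.0791) and fell in control (−0.99, SE 0.0826) and mitoLbNOX cells (−0.34, SE 0.0806). The polo-like kinase genes behaved otherwise. Plk2 had 891, 962 and 908 normalized counts in LbNOX DMSO libraries and 1664, 1646 and 1687 with antimycin, but 804, 714 and 779.7 in control DMSO libraries and 4439, 4159.6 and 4082 with antimycin. Plk3 had 25.5, 27.5 and 28.8 in LbNOX DMSO libraries and 57.1, 58.2 and 61.4 with antimycin, and in control cells 30.3, 36 and 28.5 with DMSO and 970.2, 745 and 939 with antimycin. Both kinases rose in both lines, and their highest libraries were those of control cells with antimycin.

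Of the 15 apoptosis genes 14 were tested, and antimycin raised 12 of them in LbNOX cells and lowered none by edgeR's test, beside 23.3% and 22.9% of all genes tested. In control and in mitoLbNOX cells it raised 5 and lowered 1, beside 32.1% and 31.1% of all genes in control and 24.8% and 22.9% in mitoLbNOX cells. Of the 5 in mitoLbNOX cells, Aen and Tnfrsf10b were both lost by DESeq2 (adjusted p = 0.0509 and 0.071), without the filter (0.516 and 0.414), in a fit of only the groups compared (0.0599 and 0.113), without mitoLbNOX antimycin replicate 1 (0.12 and 0.248) and without mitoLbNOX DMSO replicate 2 (0.0606 and 0.117), which leaves 3. Apaf1 was called lower in mitoLbNOX cells without the filter (−0.62, adjusted p = 0.0184) and with the position code as a covariate (−0.73, adjusted p = 0.0233). In control cells Cdip1 was called higher without antimycin replicate 1 (adjusted p = 0.0201) or 3 (0.0379), and Rps27l without antimycin replicate 1 (0.024). Trp53inp1, a stress protein of apoptosis and autophagy, had 81, 92.3 and 67.1 normalized counts in LbNOX DMSO libraries and 505, 505 and 454 with antimycin. In control cells it had 134, 136 and 87.5 with DMSO and 113, 106 and 67.7 with antimycin, and in mitoLbNOX cells 74, 88 and 100.1 with DMSO and 105, 83.8 and 152 with antimycin. The groups overlapped in control and mitoLbNOX cells and stood well apart in LbNOX cells, where the mean ratio was 6.09 ± 0.368 and the log2 fold change 2.62 (SE 0.259, adjusted p = 1.11e-09).

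Pmaip1 encodes NOXA, a BH3-only protein of the mitochondrial death pathway that ATF4 can also induce. It had 81.9, 81.9 and 60.4 normalized counts in LbNOX DMSO libraries and 275, 299 and 259 with antimycin. Control cells had 80.5, 65.5 and 71.3 with DMSO and 2109, 2076 and 2202 with antimycin, and in mitoLbNOX cells 102, 82.8 and 95.3 with DMSO and 467, 392 and 404 with antimycin. It rose in all 3 lines, with log2 fold changes of 1.91 (SE 0.116, adjusted p = 2.82e-14) in LbNOX, 4.92 (SE 0.118, adjusted p = 4.99e-25) in control and 2.199 (SE 0.112, adjusted p = 2.19e-16) in mitoLbNOX cells. Bax, a pore-forming protein of the outer mitochondrial membrane, had 921, 984 and 1073 normalized counts in LbNOX DMSO libraries and 1420.3, 1236 and 1284 with antimycin. The control line had 825, 1057 and 1048 with DMSO and 1458, 1556 and 1491 with antimycin. The treated libraries lay above the untreated ones in both lines, with log2 fold changes of 0.43 (SE 0.0723) and 0.65 (SE 0.0724). Bbc3, which encodes PUMA, another BH3-only protein, was too low to test. Its normalized counts were 3.52, 3.27 and 3.84 in LbNOX DMSO libraries and 6.56, 6.19 and 7.41 with antimycin, and in control cells 0.947, 5.04 and 2.85 with DMSO and 14.2, 15.2 and 19 with antimycin.

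The receptor genes differed among themselves. Tnfrsf10b, the mouse TRAIL receptor, rose in LbNOX cells from 352, 341 and 353 normalized counts to 839, 794 and 789 (log2 fold change 1.24, SE 0.0786), while in control cells 349, 305 and 337 with DMSO and 341, 379 and 341 with antimycin overlapped (0.13, SE 0.0808). Eda2r, a receptor for ectodysplasin A2, rose in LbNOX cells from 166, 183 and 185 to 603, 484 and 470.1 and in control cells from 185, 176 and 182 to 363, 383 and 349. Fas rose by 1.54 (SE 0.257) in LbNOX cells and by 1.30 (SE 0.264) in control cells and was not called in mitoLbNOX cells (−0.01, SE 0.267). The 3 receptors therefore rose together in LbNOX cells, whereas in control cells Tnfrsf10b was not called.

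Pidd1, which builds the complex that activates caspase-2, had 121, 157 and 107 normalized counts in LbNOX DMSO libraries and 204, 213 and 204 with antimycin, and 105, 119.6 and 119 in control DMSO libraries and 17.2, 30.4 and 32.1 with antimycin. It rose in LbNOX cells (log2 fold change 0.71, SE 0.171) and fell in control (−2.09, SE 0.21) and mitoLbNOX cells (−1.31, SE 0.189). Phlda3, an inhibitor of AKT, rose in LbNOX cells (1.14, SE 0.271, adjusted p = 0.000921) and had a log2 fold change near 0 in control cells (adjusted p = 0.994). With the position code of the labels as a covariate it was called lower in control cells (−0.55, adjusted p = 0.0473), where 3 of 3 DMSO libraries and 0 of 3 antimycin libraries had an outer code. Besides that of Bax, given above, smaller rises of apoptosis genes in LbNOX cells than that of Pidd1 were those of Ei24 (0.68), Cdip1 (0.64), Rps27l (0.48) and the nuclease gene Aen (0.17) on the log2 scale. Without the filter on low counts Ei24 (adjusted p = 0.0578) and Aen (adjusted p = 0.434) were not called, and Aen was also lost in a fit of only the groups compared (0.059) and without LbNOX antimycin replicate 3 (0.0709) or LbNOX DMSO replicate 3 (0.053). Apaf1, the scaffold of the apoptosome, and Perp, a desmosomal protein, were not called in LbNOX cells (0.58, SE 0.277, and 0.44, SE 0.359), though Apaf1 was called higher without the filter (adjusted p = 0.0397), in a fit of only the groups compared (0.034) and without LbNOX antimycin replicate 3 (0.0427).

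Of the 5 DNA repair and nucleotide genes 2 rose with antimycin in LbNOX cells, beside 23.3% of all genes tested: Xpc, a sensor of nucleotide excision repair, by 0.90 (SE 0.179) and Polk, a translesion polymerase, by 0.79 (SE 0.128) on the log2 scale. Polk had 221, 213 and 207 normalized counts in LbNOX DMSO libraries and 349, 356 and 383 with antimycin, and in control cells 238, 229.8 and 269 with DMSO and 157, 129.8 and 103 with antimycin. It thus rose in LbNOX cells and fell in control cells (−0.88, SE 0.136). Rrm2b, the p53-dependent subunit of ribonucleotide reductase, was not called in LbNOX (0.18, SE 0.165) or control cells (0.37, SE 0.166) and rose in mitoLbNOX cells (0.97, SE 0.166, adjusted p = 1.33e-05). In control cells Rrm2b was called higher with the replicate block (0.37, adjusted p = 0.0191), with the position code as a covariate (0.54, adjusted p = 0.00922), in a fit of only the groups compared (adjusted p = 0.0284) and without antimycin replicate 2 (adjusted p = 0.0358). The repair genes Ddb2 and Ercc5 were not called with antimycin in any of these lines. Among the alternatives, Ercc5 was called lower in control cells without antimycin replicate 2 (−0.43, adjusted p = 0.0148) or DMSO replicate 3 (−0.35, adjusted p = 0.0479), and in mitoLbNOX cells in a fit of only the groups compared (−0.31, adjusted p = 0.0398) or without DMSO replicate 1 (−0.39, adjusted p = 0.0393).

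Of the 6 metabolism and redox genes 5 rose with antimycin in LbNOX cells, beside 23.3% of all genes tested, while 1 rose and 2 fell in control cells (background 32.1% and 31.1%) and 2 rose and 2 fell in mitoLbNOX cells (background 24.8% and 22.9%). These small counts shifted with single libraries. Tigar was also called higher in control cells without antimycin replicate 3 (adjusted p = 0.0255) or with the position code as a covariate (0.0398), and Ak1 was not called lower in mitoLbNOX cells without antimycin replicate 2 (0.096), antimycin replicate 3 (0.215) or DMSO replicate 2 (0.0919), without the filter (0.149) or in a fit of only the groups compared (0.141). Ddit4l, an inhibitor of mTORC1 signalling, had 37.9, 36 and 55.6 normalized counts in LbNOX DMSO libraries and 159, 193 and 181 with antimycin. In control cells it had 56.8, 43.9 and 37.1 with DMSO and 12.1, 10.5 and 19 with antimycin. The groups did not overlap in either line and the directions were opposite, with log2 fold changes of 2.07 (SE 0.287, adjusted p = 6.01e-07) in LbNOX and −1.69 (SE 0.344, adjusted p = 9.52e-05) in control cells. Dcxr, a dicarbonyl and L-xylulose reductase that uses NADPH, had 53.7, 63.5 and 38.4 normalized counts in LbNOX DMSO libraries and 155, 201 and 166 with antimycin. Control cells had 64.4, 61.2 and 53.2 with DMSO and 69.8, 66.7 and 67.7 with antimycin. The LbNOX groups stood apart (log2 fold change 1.75, SE 0.229, adjusted p = 2.25e-07), while in control cells Dcxr was not called (0.22, SE 0.237).

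Fdxr, the mitochondrial ferredoxin reductase, rose in LbNOX (0.91, SE 0.104), control (0.78, SE 0.107) and mitoLbNOX cells (0.74, SE 0.105), and the difference between the LbNOX and control responses was 0.13 (SE 0.149, adjusted p = 0.508). Adenylate kinase Ak1 rose in LbNOX cells by 0.52 (SE 0.0566) and Tigar, a regulator of glycolysis, by 0.44 (SE 0.164, adjusted p = 0.0286). The call of Tigar was lost without the filter on low counts (adjusted p = 0.124) and without LbNOX antimycin replicate 1 (0.0839), LbNOX antimycin replicate 3 (0.0807) or LbNOX DMSO replicate 3 (0.133). Sesn1, a sestrin that restrains mTORC1, had 178, 173 and 168 normalized counts in LbNOX DMSO libraries and 171, 216 and 182 with antimycin. The control line had 159, 161 and 173 with DMSO and 33.4, 46.8 and 74.8 with antimycin. The LbNOX groups overlapped (0.15, SE 0.177, adjusted p = 0.506), and in control cells Sesn1 fell (log2 fold change −1.65, SE 0.202, adjusted p = 2.91e-08).

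**Figure D2:**
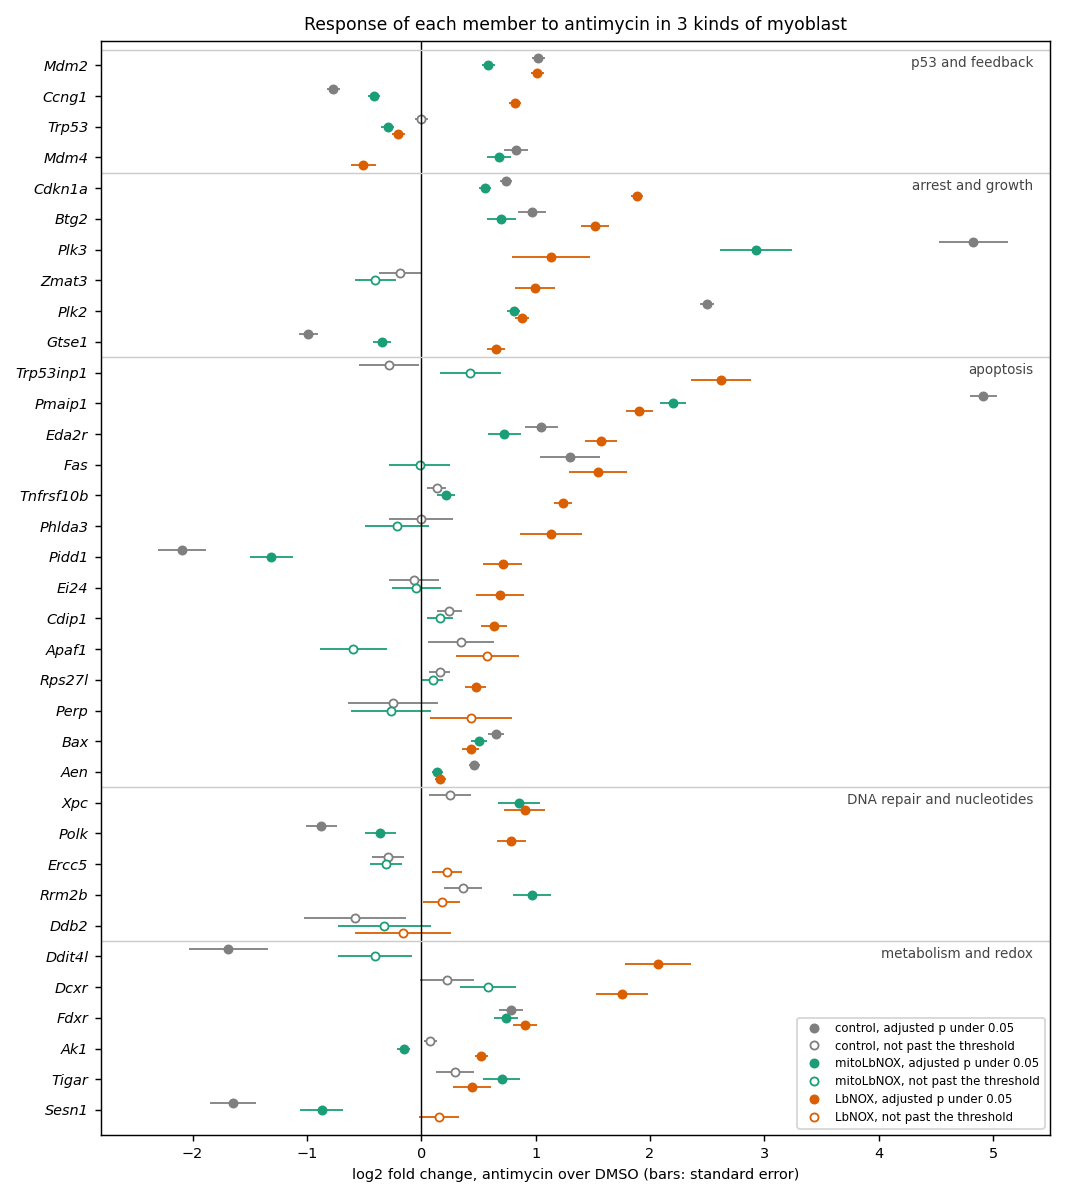
Log2 fold change with antimycin against DMSO (horizontal axis) for the 35 tested p53 genes, grouped by role, in control, mitoLbNOX and LbNOX myoblasts. Bars are standard errors and filled points have an adjusted p below 0.05, and 27 genes are called higher in LbNOX cells against 12 in control cells.

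Whether the response to antimycin differed between cell lines was tested as an interaction. The response in LbNOX cells lay above that in control cells for 20 members and below it for 6, where 24.7% and 26.8% of all genes tested did so (together 51.5%), and the median difference was 0.52 beside −0.02 over all genes. Leaving out 1 library at a time gave 20 to 26 called members, beside 26 with all libraries. Cdip1, Ei24, Eda2r and Ercc5, all on the higher side, were among the genes that lost their calls. The largest positive differences were those of Ddit4l (3.76, SE 0.446, adjusted p = 2.95e-08), Trp53inp1 (2.90, SE 0.368, adjusted p = 1e-07) and Pidd1 (2.80, SE 0.271, adjusted p = 5.61e-10). Ccng1 (1.59, SE 0.0785), Sesn1 (1.80, SE 0.269) and Cdkn1a (1.15, SE 0.0726) also responded more positively in LbNOX cells. The negative differences were Plk3 (−3.69, SE 0.464), Pmaip1 (−3.01, SE 0.163), Plk2 (−1.62, SE 0.0804), Mdm4, Aen (−0.30, SE 0.07) and Trp53 (−0.20, SE 0.0803, adjusted p = 0.035). The Trp53 difference was not called without the filter (adjusted p = 0.153), in a fit of only the groups compared (0.0867) or in 7 fits that left out 1 library, namely LbNOX antimycin replicate 2 or 3, control antimycin replicate 1, LbNOX DMSO replicate 1 or 2, or control DMSO replicate 2 or 3 (0.0619 to 0.0979). Against the mitoLbNOX response, the LbNOX response was higher for 21 members and lower for 3 (background 12.7% and 16.5%, median 0.70), with Ddit4l (2.48, SE 0.428), Trp53inp1 (2.19, SE 0.368) and Pidd1 (2.02, SE 0.255) foremost. The 3 lower ones were Plk3 (−1.79, SE 0.475), Mdm4 (−1.19, SE 0.152) and Rrm2b (−0.79, SE 0.234). The mitoLbNOX response was higher than the control response for 7 members and lower for 8 (background 15.4% and 16.3%, together 31.7%). The 7 were 4 without the filter or with the position code as a covariate and 3 in a fit of only the groups compared. They were 2 without mitoLbNOX DMSO replicate 3, 3 without control antimycin replicate 1 or control DMSO replicate 3, and 4 without control antimycin replicate 2 or mitoLbNOX antimycin replicate 3, with Pidd1, Ddit4l, Polk, Rrm2b and Sesn1 the genes that lost calls. These differences reuse the same antimycin and DMSO libraries and are not independent of each other.

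Within LbNOX cells, antimycin gave higher levels than piericidin for 29 of 35 members and lower for 1, Mdm4, where 21.5% and 21% of all genes were called (median 0.87). The same comparison in control cells gave 14 higher and 7 lower (background 19.3% and 17.9%).

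Other lists of the pathway were read beside the members. Over all genes tested, 23.3% rose and 22.9% fell with antimycin in LbNOX cells, 32.1% rose and 31.1% fell in control cells, and 24.8% rose and 22.9% fell in mitoLbNOX cells. Of 17 tested further p53 targets that are no members, such as Psrc1, 8 rose and 1 fell with antimycin in LbNOX cells (median 0.41), and in control cells 5 rose and 5 fell (median 0.08). Sesn2 and Gdf15 stand both in this list and in that of the ISR genes, and both rose in control cells. Of 19 tested regulators of p53, such as the DNA damage kinases Atm and Chek2, 4 rose and 7 fell in LbNOX cells (median −0.08), and in control cells 6 rose and 3 fell (median −0.01). Of 31 cell cycle genes that p21 represses through the DREAM complex, 3 rose and 16 fell in LbNOX cells (median −0.23), while in control cells 1 rose and 29 fell (median −0.997). The cell cycle genes thus fell by less in the line in which Cdkn1a rose more, and the difference of the responses, LbNOX minus control, was positive for 21 and negative for 2 of them (median 0.47; background 24.7% and 26.8%). Of 12 ISR genes, 10 rose and 1 fell in LbNOX cells (median 0.98), and all 12 rose in control cells (median 3.69) and in mitoLbNOX cells (median 2.57). The ISR response was lower in LbNOX than in control cells for 10 of the 12 genes, as it was for Pmaip1, Plk2 and Plk3, and the list's part in the changes of the members was not tested.

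The other inhibitors did not give the pattern of antimycin in LbNOX cells. In control myoblasts piericidin raised 14 members and lowered 11 (background 30.9% and 30.8%, together 61.7%) and oligomycin raised 12 and lowered 10 (background 24.5% and 26.3%, together 50.8%). In LbNOX myoblasts piericidin raised 1, Fdxr, and lowered 5, namely Ccng1, Plk2, Gtse1, Eda2r and Trp53 (background 5.01% and 3.87%, together 8.87%). This count of 6 fell to 2 without replicate 1 of every group and to 1 without replicate 2. There oligomycin raised 8 and lowered 8 (background 17.5% and 17.7%). Cdkn1a illustrates this: its normalized counts were 2325, 2429 and 2322 with piericidin and 1406, 1387 and 1317 with oligomycin in control cells, and 1079.6, 1096 and 982 with piericidin and 1407, 1421 and 1302 with oligomycin in LbNOX cells. Cdkn1a rose with piericidin in control cells (log2 fold change 0.99, SE 0.0516), was not called with piericidin in LbNOX cells (−0.11, SE 0.052), and rose by 0.19 and 0.28 with oligomycin in control and LbNOX cells. Ccng1 fell under both drugs in both lines, to 1409.6, 1449.5 and 1294 with piericidin and 1909, 1995 and 1778 with oligomycin in control cells, and to 1961, 2034 and 1795 with piericidin and 1999, 1791 and 1779.9 with oligomycin in LbNOX cells. Of the inhibitors given to these lines for 10 h, antimycin in LbNOX cells was the one in which Ccng1 rose.

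The p53 mRNA, Trp53, stood highest with piericidin in control cells, at 2594, 2675 and 2704 normalized counts (log2 fold change 0.65, SE 0.0565, adjusted p = 3.07e-11), and lay at 1311, 1464 and 1271 with oligomycin there (−0.35, SE 0.0569). In LbNOX cells Trp53 was at 1297, 1574 and 1540.1 with piericidin (−0.18, SE 0.0568, adjusted p = 0.0468). In control cells Plk3 (3.60, SE 0.299), Pmaip1 (3.501, SE 0.116) and Plk2 (1.84, SE 0.0581) were the named genes that rose most with piericidin. The same genes rose with oligomycin, by 2.24 (SE 0.308), 1.25 (SE 0.121) and 1.08 (SE 0.0575). Rrm2b rose with oligomycin in control cells (1.31, SE 0.16) and in LbNOX cells (0.79, SE 0.162). The piericidin response was higher in LbNOX than in control cells for 6 members and lower for 13 (background 22.3% and 22%, together 44.3%), and that to oligomycin was higher for 1 and lower for 5 (background 3.8% and 4.18%, together 7.98%). The oligomycin count of 6 was 3 without replicate 1 and 2 without replicate 2.

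In mitoLbNOX cells piericidin raised 1 member, Plk3, and lowered 3, namely Ccng1, Tnfrsf10b and Trp53 (background 6.37% and 4.83%). The count of 4 was 2 without replicate 1 or 3 and 1 without replicate 2. In NDI1 cells, with 2 libraries a group, edgeR called 0 members with piericidin. There 7 of 35 had an unadjusted p below 0.05, DESeq2 called 0, and 0.00835% of all genes were called. Compared with control cells, the piericidin response differed for 19 members in mitoLbNOX cells, 6 of them higher and 13 lower (background 21.5% and 21.4%), and for 21 members in NDI1 cells, 9 of them higher and 12 lower (background 21.2% and 21.5%, together 42.7%).

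**Figure D3:**
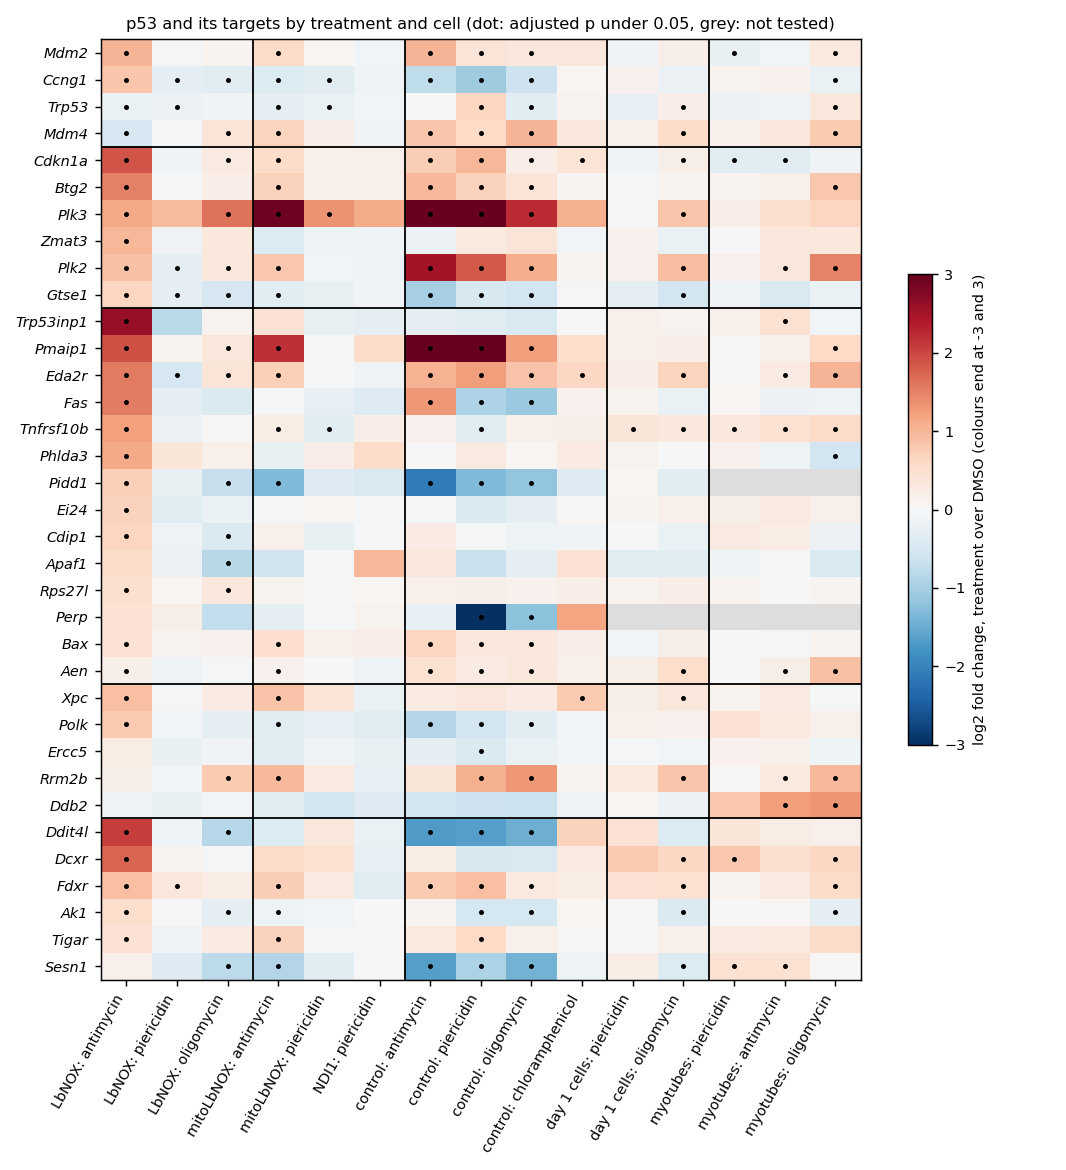
Log2 fold change of the 35 p53 genes tested in myoblasts (rows, by role) in 15 comparisons of a treatment with its own DMSO group (columns). Colours end at −3 and 3, dots mark an adjusted p below 0.05 and grey means not tested, and the column of antimycin in LbNOX myoblasts holds 27 genes called higher and 2 called lower.

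LbNOX and mitoLbNOX cells differed little from control cells before treatment. With DMSO, LbNOX cells had 1 member above control cells, Plk2 (log2 difference 0.27), and 1 below, Ccng1 (−0.30), where 1.29% and 1.37% of all genes were called (together 2.66%). mitoLbNOX cells had 0 members above and Ccng1 below (−0.36), with a background of 0.977% and 0.768%. NDI1 cells had Perp and Plk2 above and Ccng1, Btg2, Cdkn1a and Pmaip1 below (background 2.72% and 1.85%). With each replicate number left out in turn, 1 member was called for LbNOX cells, and for NDI1 cells 1 was called without replicate 1 or 2, against 6 with all libraries, in fits whose single NDI1 library is assumed to vary like the other groups. For mitoLbNOX cells 2 were called without replicate 2.

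Chloramphenicol for 48 h raised 3 of 35 members in control cells and lowered 0 (background 4.83% and 3.62%), with 2 libraries a group. The count was 1 with the replicate block, with the position code as a covariate or in a fit of only the groups compared, and it was higher without the filter. Cdkn1a had 1140.0 and 1165 normalized counts with DMSO and 1512 and 1468 with chloramphenicol (log2 fold change 0.40, SE 0.0609, adjusted p = 0.00455). Eda2r had 186 and 207 with DMSO and 336 and 253 with chloramphenicol (0.61, SE 0.16, adjusted p = 0.0498), and Xpc had 89.1 and 104 with DMSO and 151 and 174 with chloramphenicol (0.77, SE 0.178, adjusted p = 0.0302). These groups did not overlap, but the count fell to 0 without control chloramphenicol replicate 1 and to 1 without control DMSO replicate 2. Such a fit leaves 1 library in that group, which is assumed to vary like the libraries of the other groups. In LbNOX cells edgeR and DESeq2 both called 0 members (background 0.931%), with 1 at an unadjusted p below 0.05. Cdkn1a there had 1049 and 1079 with DMSO and 1119 and 1053 with chloramphenicol, which overlap. The difference between the lines was called for 0 members (background 0.53%), with 3 at an unadjusted p below 0.05 and 0 by DESeq2.

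Cell state went with large differences in several p53 genes. State cannot be told apart from serum, confluence, the luciferase transgene and doxycycline, since the cells without a transgene were studied only in low serum. Position codes also differed: 3 of 3 control myoblast and 3 of 3 day 1 DMSO libraries had an outer code, against 0 of 3 myotube DMSO libraries. Of 34 tested members 14 were higher and 12 lower (Pidd1, too low to test within myotubes, included) in DMSO-treated myotubes than in control myoblasts, shares close to the background of 35.7% and 33.7%. Cdkn1a had 1183, 1252 and 1190.5 normalized counts in myoblasts, 11269, 11523 and 11778 in day 1 cells and 16782, 15745 and 16244 in myotubes. Its level in myotubes was 13.5 ± 0.429 times that in myoblasts (log2 difference 3.73, SE 0.0542, adjusted p = 9.45e-30), and the 3 groups did not overlap. Pmaip1 had 80.5, 65.5 and 71.3 in myoblasts, 807, 722 and 725 in day 1 cells and 839, 870.0 and 865 in myotubes. Eda2r had 185, 176 and 182 in myoblasts, 602, 689 and 762 in day 1 cells and 1351, 1390.1 and 1472 in myotubes. Both were lowest in myoblasts, with log2 differences between myotubes and myoblasts of 3.55 and 2.94. Eda2r was also higher in myotubes than in day 1 cells, whereas for Pmaip1 that difference was not called (0.22, SE 0.0885, adjusted p = 0.0506).

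In the opposite direction, Gtse1 had 871, 778 and 905 normalized counts in myoblasts, 123, 110.0 and 101 in day 1 cells and 84.3, 66.7 and 64.6 in myotubes (log2 difference −3.59 between myotubes and myoblasts). Pidd1 had 105, 119.6 and 119 normalized counts in myoblasts and 12, 9.67 and 20.2 in myotubes. These myotube libraries held 10 to 20 raw counts of Pidd1, too few for the gene to be tested in the fit of myotubes alone, and it entered the fit across states through groups where it is higher. Trp53 had 1781, 1706 and 1709.7 in myoblasts, 1137, 1105 and 1056 in day 1 cells and 720.5, 769 and 693 in myotubes (−1.27), so it was lowest where Cdkn1a was highest. Mdm2 differed little, at 923, 800.3 and 952 in myoblasts, 816, 908 and 889.7 in day 1 cells and 1071, 1083 and 1116 in myotubes (0.27). Sesn1 was highest in day 1 cells, at 615, 650.1 and 599, beside 159, 161 and 173 in myoblasts and 487, 443 and 469 in myotubes. Of 31 tested DREAM cell cycle genes, 30 were lower in myotubes (median −3.05), beside 33.7% of all genes tested. Day 1 cells had 12 members above and 12 below myoblasts (background 31.3% and 32.3%), and myotubes had 8 above and 8 below day 1 cells (background 19.6% and 16%).

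**Figure D4:**
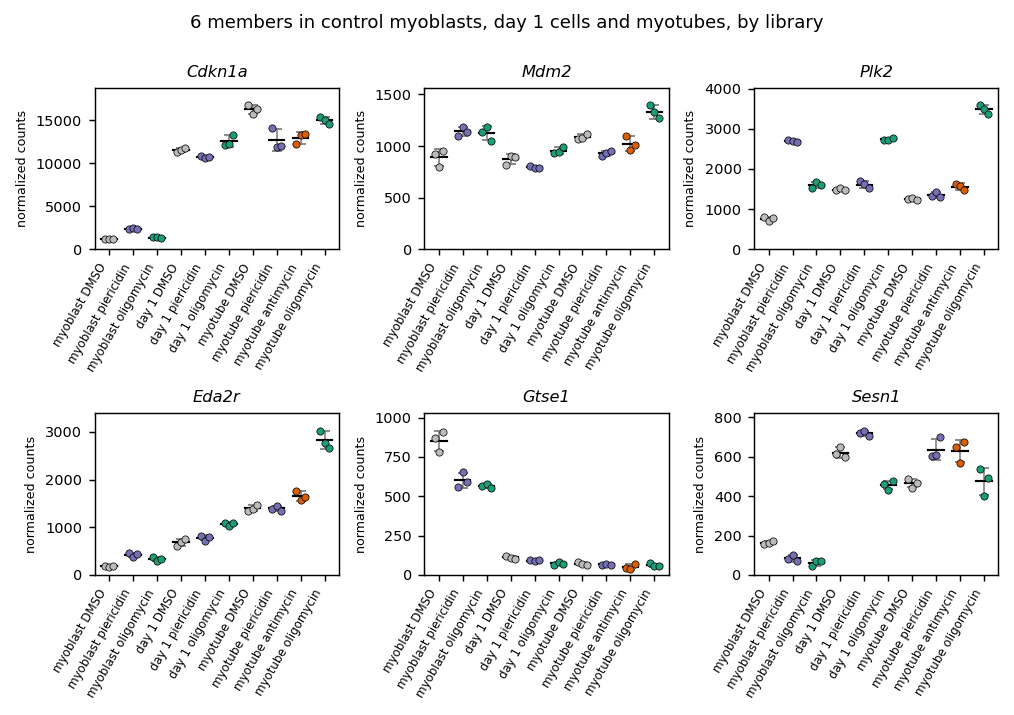
Normalized counts of 6 p53 genes by library in control myoblasts, day 1 cells and myotubes. Libraries had DMSO, piericidin or oligomycin, and in myotubes also antimycin. Points are libraries, lines are means and bars are SD (n = 3), with vertical axes from 0. Among the DMSO libraries, Cdkn1a and Eda2r are highest in myotubes, Gtse1 is highest in myoblasts and Sesn1 is highest in day 1 cells.

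In myotubes without a transgene, oligomycin raised 13 of 33 tested members and lowered 3 (background 16.9% and 16.4%), antimycin raised 8 and lowered 1 (background 6.64% and 6.27%), piericidin raised 3 and lowered 2 (background 4.15% and 4.84%) and BAM15 raised 3 and lowered 4 (background 13.2% and 12.2%). The median log2 fold change of the members was 0.16 with oligomycin and 0.23 with antimycin. These comparisons share the DMSO libraries. The antimycin count of 9 was 4 without any of the replicates 1, 2 or 3, that of piericidin, 5, was 3, 2 and 1, and that of BAM15, 7, was 4 without replicate 1 and 3 without replicate 2. Plk2 had 1244, 1274 and 1215 normalized counts with DMSO, 1628, 1574 and 1469 with antimycin and 3584, 3499 and 3360.5 with oligomycin. Eda2r had 1351, 1390.1 and 1472 with DMSO, 1760.3, 1562 and 1637 with antimycin and 3029, 2774 and 2665 with oligomycin. Both were highest with oligomycin, without overlap, with log2 fold changes of 1.49 and 1.01. Ddb2, a DNA damage sensor, rose with oligomycin (1.32) and antimycin (1.24), with a mean under 50 normalized counts over the groups compared each time. Rrm2b rose with oligomycin (0.96) and antimycin (0.28). Cdkn1a, high at the start, fell with antimycin (−0.31), to 12192, 13281 and 13391 normalized counts from 16782, 15745 and 16244, and with piericidin (−0.35), to 14145, 11910.0 and 12060.0. Mdm2 rose with oligomycin (0.30), was not called with antimycin and fell with piericidin (−0.22). Sesn1 rose with antimycin (0.45) and piericidin (0.46).

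BAM15 added to oligomycin raised 2 members and lowered 13 relative to oligomycin alone (background 12% and 14.1%), and piericidin added to oligomycin raised 8 and lowered 11 (background 8.46% and 12.4%). Plk2 then had 1601, 1641 and 1554 normalized counts with BAM15 and 1579, 1570.0 and 1592 with piericidin, against 3584, 3499 and 3360.5 with oligomycin alone. Eda2r had 1569, 1725 and 1849.7 with BAM15 and 1630.4, 1681 and 1689 with piericidin, against 3029, 2774 and 2665. Aen had 1446, 1382 and 1439 with oligomycin and 679, 683 and 738 when BAM15 was added. For these genes the combined libraries all lay below oligomycin alone. Set against DMSO, oligomycin with BAM15 raised 7 members and lowered 2 (background 12.1% and 11%) and oligomycin with piericidin raised 6 and lowered 1 (background 5.83% and 6.97%). Without replicate 2 the counts were 4 for oligomycin with BAM15, 4 for oligomycin with piericidin and 11 for piericidin added to oligomycin, and oligomycin with BAM15 gave 5 without replicate 1 or 3.

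Oxygen at 5% raised 3 members and lowered 4 (background 12.3% and 9.78%). Gtse1 fell by 2.29 on the log2 scale, with a mean under 50 normalized counts over the groups compared. Under 5% oxygen oligomycin raised 4 members and lowered 0 (background 2.04% and 2.22%), and under oligomycin 5% oxygen raised 3 and lowered 12 (background 16.7% and 16.5%). Plk2 had 1728, 1639.5 and 1674 normalized counts in 5% oxygen with DMSO and 1787, 1726 and 1896 with oligomycin. These overlap, unlike the corresponding groups without the oxygen limit. The 4 calls for oligomycin in 5% oxygen were 2 without replicate 2 or 3.

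The responses of myotubes and myoblasts to one drug were set against each other as interactions. For antimycin, 10 members responded more positively in myotubes and 12 less (background 25.4% and 22.5%), among them Pmaip1 (−4.72), Plk3 (−4.27), Plk2 (−2.11), Mdm2 (−1.05) and Cdkn1a (−1.001) on the lower side and Sesn1 (2.15) and Ddit4l (1.94) on the higher side. For piericidin the counts were 12 and 10 (background 25.2% and 21.3%) and for oligomycin 11 and 3 (background 15.8% and 13.2%). The higher counts for antimycin and piericidin each include Pidd1, whose myotube counts lay too low for a test within myotubes and which entered this fit through other groups. Without replicate 1 the antimycin count of 22 was 14, and the oligomycin count of 14 was 9, 9 and 8 without replicates 1, 2 and 3. The myotubes carried no transgene, so cell state and transgene cannot be told apart here either.

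In transduced myotubes, piericidin raised 1 member and lowered 1 with GFP (background 1.45% and 1.63%), and raised 3 and lowered 1 with LbNOX (background 3.4% and 3.37%). Cdkn1a fell in both, by 0.34 and 0.32 on the log2 scale, and Sesn1 rose in both, by 0.64 and 0.33. Oligomycin raised 11 and lowered 4 with GFP (background 14% and 11.8%) and raised 12 and lowered 5 with LbNOX (background 17.2% and 14.5%). Plk2 rose by 1.57 (SE 0.059) with GFP and 1.60 (SE 0.0482) with LbNOX, Rrm2b by 1.38 and 1.32, and Eda2r by 1.03 and 1.09. The difference of the responses between LbNOX and GFP was called by edgeR for 0 members and 0 of all 12395 genes for either drug. Unadjusted p-values below 0.05 were found for 4 members with piericidin and 3 with oligomycin, and DESeq2 called 0 members for both. With 2 GFP libraries a group, differences of small size may have gone undetected. LbNOX and GFP myotubes with DMSO differed in 0 members by edgeR and by DESeq2 (background 0.00807%), with 4 at an unadjusted p below 0.05. No antimycin was given to transduced myotubes. Without replicate 1, oligomycin called 8 members and piericidin 1 with GFP, where the lone GFP library of each group is assumed to vary like the other groups. Piericidin with LbNOX called 1, 1 and 2 without replicates 1, 2 and 3.

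In day 1 cells piericidin raised 1 member, Tnfrsf10b (0.36), and lowered 0 (background 1.39% and 1.36%), with 11 of 34 at an unadjusted p below 0.05. Oligomycin raised 12 and lowered 3 (background 10.6% and 10.1%). Among called members with a mean of at least 50 normalized counts, Plk2 (0.91), Rrm2b (0.83) and Eda2r (0.68) rose most, and Gtse1 (−0.57), Ak1 (−0.44) and Sesn1 (−0.41) fell. Plk3, with a lower mean, also rose (0.83, adjusted p = 0.0383). Cdkn1a rose by 0.16 on the log2 scale. With oligomycin it was not called in myotubes without a transgene (−0.11, SE 0.0462, adjusted p = 0.0716), and it fell by 0.18 in myotubes with GFP and by 0.18 in those with LbNOX. These differences between stages were not tested. Without replicates 1, 2 and 3 in turn, oligomycin called 7, 7 and 9 members and piericidin 0 each time by edgeR.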

How the data were processed

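Per the labels and the study's methods, RNA from C2C12 cells was made into 96 poly(A) Smart-seq2 libraries, which keep no strand, and sequenced as paired reads of 37 bases. The authors demultiplexed with bcl2fastq 2.20.0.422 and quantified with kallisto 0.44 on mouse transcripts of build GRCm38.p6 plus the transgenes. The deposited values are estimated counts per gene in whole numbers, with nothing normalized. Total counts ranged from 6458295 to 15366745 a library. Reads of overlapping genes on opposite strands cannot be told apart, which touches Cdkn1a, Plk3, Ei24, Ddb2, Rrm2b, Tigar and Cdip1. Bax shares exon bases with a gene on the same strand.

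The 6 sets of libraries were fitted with edgeR 4.0.16 in R 4.3.3 (TMM, 1 mean per condition, quasi-likelihood F test, two-sided), leaving out genes that reached 16 counts throughout the replicates of no group. Benjamini-Hochberg adjustment ran over all genes tested in each of 50 comparisons, 13 of them interactions, with a threshold of 0.05. A standard error is the log2 fold change divided by the root of F. Levels are counts divided by DESeq2 1.42.0 size factors over all libraries. No replicate pair of a group held identical values. Scripts were tested on simulated counts. Alternatives were DESeq2, other scalings, no filter, fits of only the groups compared, a replicate block, the position code of the labels and leaving out each replicate.

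The members and lists were chosen with earlier results of these data known. Values in each library were given for Trp53, Mdm2, Cdkn1a, Ccng1, Trp53inp1, Bax, Bbc3 and Sesn1 and for up to 5 members a direction with the largest called change with antimycin in LbNOX cells and a mean of at least 50 normalized counts. Up to 3 a direction were named in other comparisons, and all members were covered by role. Further genes were named after their values were seen. Promoter windows and gene positions came from RefSeq and GENCODE tables of GRCm38.p6.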

Additional observations from a re-analysis of the deposited data

Results flagged for a closer look

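Each of the following is a difference between responses that passed the test of the difference itself, an interaction term in edgeR's quasi-likelihood model. With antimycin, the response differed between LbNOX and control myoblasts for 26 of 35 members (51.5% of all genes tested), between LbNOX and mitoLbNOX myoblasts for 24 (29.2%) and between mitoLbNOX and control myoblasts for 15 (31.7%). The last count was 10 in a fit of only the groups compared. With piericidin it differed from control myoblasts for 19 members in LbNOX (44.3% of all genes), 19 in mitoLbNOX (42.9%) and 21 in NDI1 cells (42.7%). With oligomycin it differed between LbNOX and control myoblasts for 6 members (7.98% of all genes). Between myotubes and control myoblasts it differed for 22 of 34 members with piericidin (46.5% of all genes), 22 with antimycin (47.9%) and 14 with oligomycin (29%). Each count of 22 includes Pidd1, which was too low to test within myotubes and entered that fit through other groups.

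For antimycin in LbNOX against control cells, the differences of single genes on the log2 scale were 3.76 for Ddit4l, 2.90 for Trp53inp1, 2.80 for Pidd1, 1.80 for Sesn1, 1.59 for Ccng1, 1.53 for Dcxr and 1.15 for Cdkn1a. They were −3.69 for Plk3, −3.01 for Pmaip1, −1.62 for Plk2, −1.33 for Mdm4 and −0.20 for Trp53, a difference that lost its call without the filter, in a fit of only the groups compared and in 7 fits with 1 library left out. No group held 4 or more samples, so no sample was tested as standing apart from its group.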

How the results depend on the processing

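Reversals were looked for in single genes with antimycin against DMSO in myoblasts, and in the differences of that response between lines. There, no gene called in the main fit changed sign under an alternative, and none gained a call in the opposite direction. The other comparisons were followed only by counts of called members, which do not show a reversal. Of 3149 values of single genes under alternative settings, 2959 kept their side of the threshold, 152 lost the call and 38 gained it, and 47 of 337 counts of members in the further comparisons moved by more than 1.5 times. Leaving out each replicate in turn gave 1 to 5 called members for piericidin in LbNOX myoblasts (6 with all libraries), 1 for LbNOX against control with DMSO (2 with all libraries), 0 to 2 for chloramphenicol in control myoblasts (3 with all libraries) and 4 for antimycin in myotubes (9 with all libraries). For antimycin in LbNOX myoblasts it gave 27 to 29, beside 29. A fit of only the groups compared called 2 members for piericidin in LbNOX myoblasts, 1 for LbNOX against control and 1 for chloramphenicol in control myoblasts. Chloramphenicol also gave 5 members without the filter, 1 with the position code of the labels (outer or not) as a covariate and 1 with the replicate block.

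With antimycin in LbNOX cells Aen, Ei24 and Tigar lost their calls without the filter. The lower Trp53 response in LbNOX than in control cells was not called without the filter (adjusted p = 0.153), in a fit of only the groups compared (adjusted p = 0.0867) or in 7 fits with 1 library left out (0.0619 to 0.0979). Fits with fewer samples, or with more genes to adjust over, have less power by construction. Other causes were not tested. Replicate numbers did not pair the samples (mean correlation of same-numbered myoblast libraries 0.0297), and the block changed no other main count by more than 1.5 times. Among single genes with antimycin the block added calls for Rrm2b in control cells (adjusted p = 0.0191), Dcxr in mitoLbNOX cells (0.0455) and Ei24 between LbNOX and mitoLbNOX cells (0.0358). With crossed numbers the chloramphenicol fit called 2 members, beside 1 with the numbers as given, and piericidin in GFP myotubes called 1 higher and 1 lower either way. Groups of 2 or 3 libraries limit what small differences could be seen, and some members were too low to test, Bbc3 in all fits but that of transduced myotubes, Perp in the fits that hold cells in low serum, and Pidd1 in untransduced myotubes.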
